A study of Homo sapiens with 10 samples.

Results

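The histone demethylase LSD1 and the corepressor RCOR3 were compared by where their ChIP-seq peaks lie in the Kelly neuroblastoma genome. The 4 peak lists (2 LSD1 and 2 RCOR3 libraries, chromosomes 1 to 22 and X) merged into 49245 regions. A region was classed as LSD1 without RCOR3 where both LSD1 libraries and no RCOR3 library had a peak. It was classed as RCOR3 without LSD1 in the opposite case, and as shared where all 4 libraries had one. The 3 classes held 12337 regions, which were 5812 of LSD1 without RCOR3 (11.8% of the merged regions), 2581 of RCOR3 without LSD1 (5.24%) and 3944 shared (8.01%). The other 36908 regions (74.9%) fell between these definitions and are described only where they bear on the classes.

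Kelly is an adrenergic neuroblastoma line with amplified MYCN, and every library came from it or from a derivative. RCOR3 was pulled down with antibody ab76921 from non-treated Kelly cells. LSD1 was pulled down with antibody ab129195 from Kelly cells that carry a doxycycline-inducible shRNA against RUNX1T1 and were left without doxycycline. The labels give 48 h for both groups. The LSD1 and RCOR3 libraries therefore differ in cell derivative and antibody as well as in protein, and these cannot be told apart. The series also holds 2 libraries each of RCOR1, of FLAG-tagged RCOR2 induced with 2 µg/mL doxycycline, and of the same FLAG antibody in uninduced cells. These 6 libraries took no part in the definition of the classes. The uninduced FLAG libraries are that pull-down without induction. Whether their peaks are background or tagged RCOR2 made without induction was not tested.

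LSD1 (gene symbol KDM1A) removes methyl groups from lysine 4 of histone H3, a mark found at promoters and enhancers. It works in the CoREST complex with histone deacetylases and with a CoREST protein, RCOR1, RCOR2 or RCOR3, that holds LSD1 on the nucleosome. LSD1 is recruited to DNA by transcription factors such as those of the SNAG-domain family, and it is an enzyme with known roles in keeping neuroblastoma cells undifferentiated.

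Promoters of the strongest class regions at transcription starts are printed as examples. Sequence was read in promoter windows only, and most regions of 2 classes lay elsewhere. Within 2 kb of a gene's first or last base lay 5.13% of LSD1 without RCOR3 and 7.18% of shared regions. For RCOR3 without LSD1 it was 51.1%. Each line gives the 250 bases before the transcription start of a gene whose promoter window overlaps a region of its class (RefSeq, GRCh38.p14, sense strand, 5′ to 3′). ATP2C1 (a calcium pump of the Golgi, window chr3:130850345-130850644, plus strand) and TOR1AIP2 (an activator of torsin at the nuclear envelope and endoplasmic reticulum, chr1:179877754-179878053, minus strand) represent LSD1 without RCOR3. DDX5 (an RNA helicase, chr17:64506589-64506888, minus strand) and STX16 (a syntaxin of the Golgi, chr20:58651033-58651332, plus strand) represent RCOR3 without LSD1. H4C5 (a replication-dependent histone H4, chr6:26204360-26204659, plus strand) and PWWP2A (a chromatin reader, chr5:160119401-160119700, minus strand) represent the shared class. The coordinates are those of the whole window of 300 bases, which runs 50 bases past the start. Capitals mark every match, on either strand, to the 16 short motifs listed with the promoter results.
ATP2C1: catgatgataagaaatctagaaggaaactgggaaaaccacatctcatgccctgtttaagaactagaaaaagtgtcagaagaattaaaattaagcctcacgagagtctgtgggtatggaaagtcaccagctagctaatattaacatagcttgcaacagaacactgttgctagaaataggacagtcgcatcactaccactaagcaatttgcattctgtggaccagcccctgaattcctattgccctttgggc
TOR1AIP2: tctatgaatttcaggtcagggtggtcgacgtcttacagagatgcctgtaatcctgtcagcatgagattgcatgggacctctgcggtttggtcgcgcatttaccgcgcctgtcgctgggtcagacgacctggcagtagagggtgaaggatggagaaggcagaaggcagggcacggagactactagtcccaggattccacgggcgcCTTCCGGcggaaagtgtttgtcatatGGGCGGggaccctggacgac
DDX5: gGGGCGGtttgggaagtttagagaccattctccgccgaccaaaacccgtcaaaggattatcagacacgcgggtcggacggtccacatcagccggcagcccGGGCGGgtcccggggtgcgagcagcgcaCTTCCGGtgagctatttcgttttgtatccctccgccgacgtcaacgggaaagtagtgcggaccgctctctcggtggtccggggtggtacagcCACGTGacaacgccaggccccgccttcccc
STX16: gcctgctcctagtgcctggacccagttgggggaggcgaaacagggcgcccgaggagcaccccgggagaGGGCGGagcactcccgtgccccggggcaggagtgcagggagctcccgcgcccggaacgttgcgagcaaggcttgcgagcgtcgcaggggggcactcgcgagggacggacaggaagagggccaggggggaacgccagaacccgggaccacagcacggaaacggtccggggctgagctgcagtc
H4C5: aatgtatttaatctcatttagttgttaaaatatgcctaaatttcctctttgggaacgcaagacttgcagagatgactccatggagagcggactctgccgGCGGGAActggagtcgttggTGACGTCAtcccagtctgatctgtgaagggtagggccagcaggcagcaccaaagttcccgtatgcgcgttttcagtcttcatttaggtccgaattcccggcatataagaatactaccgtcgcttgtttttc
PWWP2A: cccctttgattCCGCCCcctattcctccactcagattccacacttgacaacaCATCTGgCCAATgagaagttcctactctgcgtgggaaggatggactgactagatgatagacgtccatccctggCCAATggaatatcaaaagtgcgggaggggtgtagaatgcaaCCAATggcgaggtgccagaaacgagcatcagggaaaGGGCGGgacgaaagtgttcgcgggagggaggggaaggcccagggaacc

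The ATP2C1 promoter had no match and 42.0% G and C over the window, against 61.3% in DDX5 and 71.0% in STX16. TOR1AIP2, of the same class as ATP2C1, was close to DDX5, with 60.7% and matches to CCGGAAG and GGGCGG. H4C5 had 47.7% and PWWP2A 57.7%. The LSD1 fold at ATP2C1 was 10.4 and 10.3 in replicates 1 and 2. The RCOR3 fold at DDX5 was 7.61 and 8.24, and at STX16 8.17 and 8.05. Fold here and below is the authors' deposited enrichment of a peak over its surroundings, and the highest value was taken where a region held several peaks of a library. It ranks regions within a library. It is no common scale for proteins pulled down with different antibodies. At TOR1AIP2, DDX5 and STX16 at least 1 uninduced FLAG library also had a peak, whereas ATP2C1, H4C5 and PWWP2A had none.

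The 4 lists differed in size and in how well they repeated. LSD1 gave 19392 and 19667 peaks, RCOR3 13644 and 27786. Of the LSD1 peaks 67.0% and 66.3% overlapped a peak of the other LSD1 library, and of the RCOR3 peaks 54.5% and 26.5%. RCOR3 replicate 2 stood apart, since 17676 merged regions (35.9%) held a peak of that library alone. The base-pair Jaccard index was 0.490 between the LSD1 libraries, 0.201 between the RCOR3 libraries and 0.142 to 0.205 between the proteins. The mean index within proteins exceeded that between them by 0.168, the largest of the 3 possible pairings of the libraries (one-sided exact permutation p = 0.333, the smallest this design allows). Without LSD1 replicate 1 the difference was 0.0190 and without LSD1 replicate 2 it was 0.0272. Without RCOR3 replicate 1 it was 0.339, and without RCOR3 replicate 2 it was 0.286. The RCOR3 pair thus resembled each other about as little as they resembled LSD1.

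Position relative to genes separated RCOR3 without LSD1 from both other classes. A region was counted at a gene end where it came within 2 kb of the first or last base of any of 19970 protein-coding genes. Of the regions of RCOR3 without LSD1, 1319 of 2581 lay at a gene end (51.1%, Wilson 95% interval 49.2 to 53). This held for 298 of 5812 regions of LSD1 without RCOR3 (5.13%, 4.59 to 5.72) and for 283 of 3944 shared regions (7.18%, 6.41 to 8.02). Over all merged regions the share was 17.2%. The intervals cover counting error only. The median distance to the nearest gene end was 1.69 kb for RCOR3 without LSD1, 56.2 kb for LSD1 without RCOR3 and 46.7 kb for shared regions. The share of regions inside a gene but beyond 2 kb from its ends was 19.4%, 44.7% and 44.0% in the same order.

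The gene ends of RCOR3 without LSD1 were mostly transcription starts. The promoter table gives strand for 79.2% of the protein-coding genes and none on chromosome 8. On the other chromosomes, 39.0% of the regions of RCOR3 without LSD1 lay within 2 kb of a gene's 5′ end only and 2.55% within 2 kb of a 3′ end only. For LSD1 without RCOR3 the values were 2.87% and 1.34%, and for shared regions 4.20% and 1.64%. At the level of libraries, 9.63% and 5.47% of LSD1 peaks lay at gene ends (7.55% ± 2.94, SD, n = 2), against 30.0% and 18.9% of RCOR3 peaks (24.4% ± 7.85, SD, n = 2). The 2 groups did not overlap. The difference of 16.9 points had a two-sided exact permutation p of 0.333, the smallest that 2 against 2 libraries allow.

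**Figure D1:**
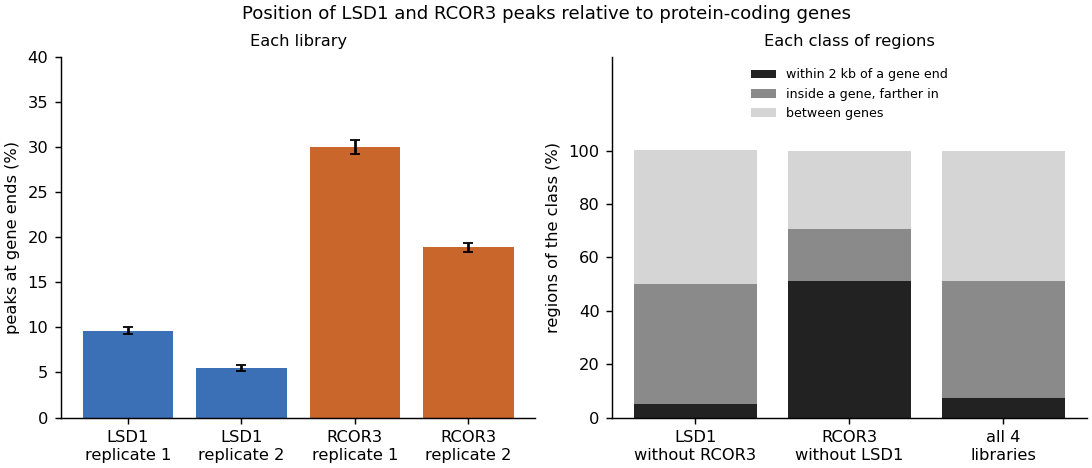
Left, the percentage of the peaks of each library that lie within 2 kb of an end of a protein-coding gene, with Wilson 95% intervals. Right, the percentage of regions of each class at gene ends, farther inside genes or between genes. The RCOR3 libraries reach 30.0% and 18.9% at gene ends and the LSD1 libraries 9.63% and 5.47%, and RCOR3 without LSD1 has 51.1% there, against 5.13% and 7.18% in the other classes.

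Replicate 1 of RCOR3 carried most of this position. Regions with a peak of RCOR3 replicate 1 alone lay at gene ends in 52.6% of 3504 cases, those with a peak of RCOR3 replicate 2 alone in 17.9% of 17676. With RCOR3 replicate 1 left out, the class grew from 2581 to 20355 regions and its gene-end share was 22.3%. With RCOR3 replicate 2 left out, it held 6279 regions and the share was 51.1%. Leaving out regions with an uninduced FLAG peak reduced the class to 1288 regions, 39.1% of them at gene ends. In each of 12 alternative settings the class of RCOR3 without LSD1 kept the highest gene-end share of the 3 classes.

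The partner libraries, which were not used to define the classes, differed between them. RCOR1 peaks lay in 99.8% and 86.0% of shared regions (replicates 1 and 2), in 92.3% and 76.8% of regions of RCOR3 without LSD1, and in 66.5% and 7.74% of regions of LSD1 without RCOR3. RCOR1 replicate 1 thus found most LSD1 regions that lack RCOR3, and RCOR1 replicate 2 few of them. Induced RCOR2 peaks lay in 84.7% and 81.8% of regions of RCOR3 without LSD1, in 53% and 51.6% of shared regions, and in 10.4% and 10.3% of regions of LSD1 without RCOR3. At gene ends of RCOR3 without LSD1, induced RCOR2 peaks were present in 97.7% and 97.8%. These shares rested on RCOR3 replicate 1. Without it the class held RCOR1 peaks in 29.0% on average over the RCOR1 libraries, against 84.6% with it, 44.6% in LSD1 without RCOR3 and 87.4% in shared regions under the same setting. For induced RCOR2 the mean share was 44.6%, against 83.2% with that library and 48.4% in shared regions without it, so the order of these classes turned. The median induced RCOR2 fold in the class of RCOR3 without LSD1 was 17.1 and 24.5, against 6.37 and 5.74 in shared regions and 5.55 and 6.61 over all peaks of these libraries.

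Uninduced FLAG peaks were also found most often in RCOR3 without LSD1. Their peaks lay in 41.1% and 25.1% of regions of RCOR3 without LSD1, in 3.30% and 11.6% of shared regions, and in 0.0688% and 0.791% of regions of LSD1 without RCOR3. In all, 50.1% of the regions of RCOR3 without LSD1 held a peak of at least 1 uninduced FLAG library. The part of this uninduced FLAG signal in the RCOR3 class was not tested. Without these regions the mean share with an induced RCOR2 peak was 68.9%, against 83.2% ± 2.00 (SD, n = 2) with them. Without RCOR3 replicate 1 the mean share with an uninduced FLAG peak was 18.0%, against 33.1% with it, and without RCOR3 replicate 2 that of LSD1 without RCOR3 was 3.05%, against 0.430%.

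Over whole libraries, the share of peaks that overlap induced RCOR2 replicate 1 was 59.6% and 50.3% for RCOR3 against 24.6% and 22.2% for LSD1. For induced RCOR2 replicate 2 it was 58.5% and 40.5% against 25.9% and 20.5%. For the uninduced FLAG libraries the differences were 12.7 and 10.3 points, again with RCOR3 higher in both libraries. For RCOR1 replicate 1 the groups overlapped, with 95.9% and 48.7% for RCOR3 against 73.0% and 69.0% for LSD1. For RCOR1 replicate 2 the values were 61.4% and 37.4% against 31.5% and 29.6%. The 5 comparisons whose groups did not overlap had a two-sided exact permutation p of 0.333 (0.400 after Benjamini-Hochberg adjustment over 6 partner libraries), and RCOR1 replicate 1 had a p of 1.000.

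**Figure D2:**
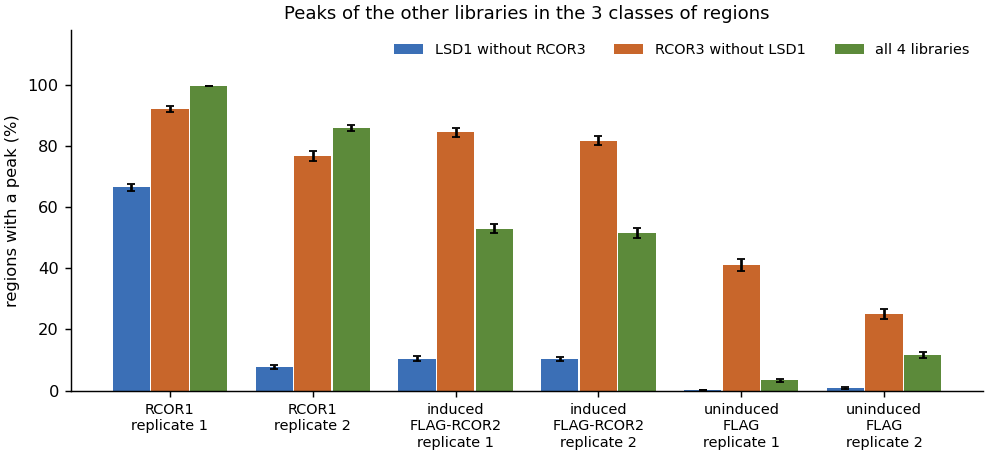
Percentage of the regions of each class (bars, with Wilson 95% intervals) that hold a peak of each library that took no part in the classes. The 2 induced FLAG-RCOR2 libraries have peaks in 84.7% and 81.8% of regions of RCOR3 without LSD1 and in 10.4% and 10.3% of regions of LSD1 without RCOR3, and the uninduced FLAG libraries reach 41.1% and 25.1% in the former.

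The authors' deposited RCOR2-high and RCOR2-low lists, region sets without values, split the classes likewise. RCOR2-high regions overlapped 45.8% of regions of RCOR3 without LSD1, 3.85% of shared regions and 1.05% of regions of LSD1 without RCOR3. RCOR2-low regions overlapped 35.3%, 92.6% and 66.4% in the same order. Among gene ends of RCOR3 without LSD1, RCOR2-high covered 69.4%. The lists come from the same series and share libraries with the partner comparison.

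Shared regions were the stronger LSD1 regions. The median LSD1 fold was 8.52 and 10.6 in shared regions (replicates 1 and 2), and 5.71 and 6.13 in LSD1 without RCOR3, a ratio of 1.49 and 1.73. At gene ends these ratios were 0.969 and 1.04, so the difference was found away from gene ends, where they were 1.52 and 1.80. RCOR3 fold differed less. It was 5.90 and 6.72 in shared regions and 4.66 and 5.91 in RCOR3 without LSD1, a ratio of 1.27 and 1.14. Shared regions were also wider, with a median of 686 bp against 348 bp for LSD1 without RCOR3 and 303 bp for RCOR3 without LSD1. A wider region meets a peak of another list more readily, and the part of width in these ratios was not tested.

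Ranking the 12613 regions with both LSD1 libraries into quintiles by LSD1 fold, and the 7160 with both RCOR3 libraries by RCOR3 fold, gave the share of each that the other protein also held. In the strongest LSD1 quintile 73.5% had both RCOR3 libraries, against 28.8%, 15%, 12.4% and 26.7% in the next 4 quintiles down. The weakest LSD1 quintile thus held more RCOR3 than the quintile above it, and it also had the highest gene-end share, 13% against 2.5% in the strongest. In the strongest RCOR3 quintile 88.5% had both LSD1 libraries, and the share fell with each step to 62.6%, 47.3%, 41.0% and 36.0%. The gene-end share went the other way, from 9.08% in the strongest RCOR3 quintile to 35.5% in the weakest.

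**Figure D3:**
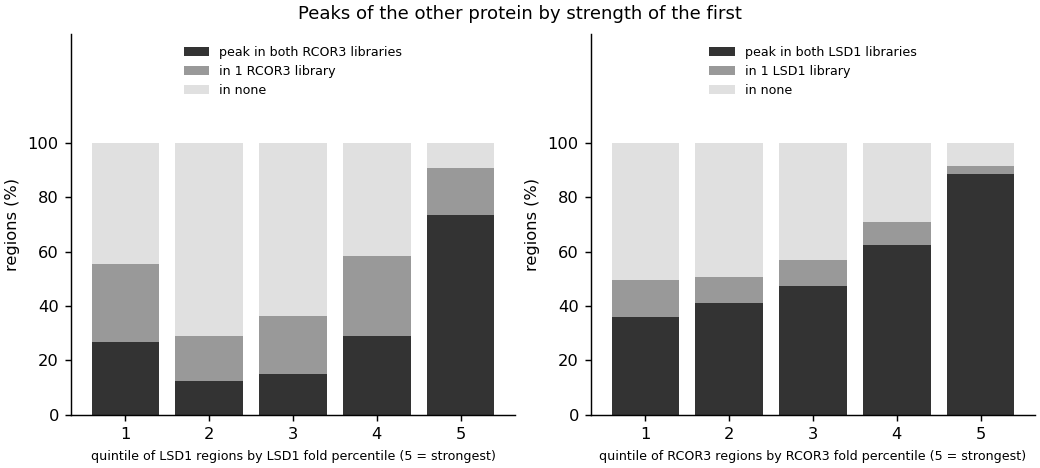
Percentage of regions with peaks of the other protein in both, 1 or none of its libraries, in quintiles of the regions with both LSD1 libraries (left) and with both RCOR3 libraries (right), from weakest (1) to strongest (5). Both RCOR3 libraries are found in 73.5% of the strongest LSD1 quintile, and both LSD1 libraries in 88.5% of the strongest RCOR3 quintile.

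Within the shared class the folds of the proteins ran together weakly. The rank correlation of mean log2 LSD1 and mean log2 RCOR3 fold was 0.38 over 3944 regions (Pearson 0.41), and 0.30 over the 283 at gene ends. For single libraries it lay between 0.25 and 0.41. The LSD1 replicates had a rank correlation of 0.90 over the same regions, the RCOR3 replicates 0.54, and neighbouring regions and wide regions share their background and width. In quintiles by width the correlation was 0.04, 0.09, 0.19, 0.29 and 0.50 from the narrowest to the widest. Outside the shared class the LSD1 replicates correlated at 0.51 over LSD1 without RCOR3, whereas the RCOR3 replicates correlated at 0.08 over RCOR3 without LSD1, so that fold gives no stable order of the latter regions. Summits lay a median of 35.0 bp apart between the LSD1 libraries, 54.0 to 62.0 bp between LSD1 and RCOR3 libraries and 68.0 bp between the RCOR3 libraries. LSD1 and RCOR3 summits were therefore no farther apart than those of the RCOR3 replicates.

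**Figure D4:**
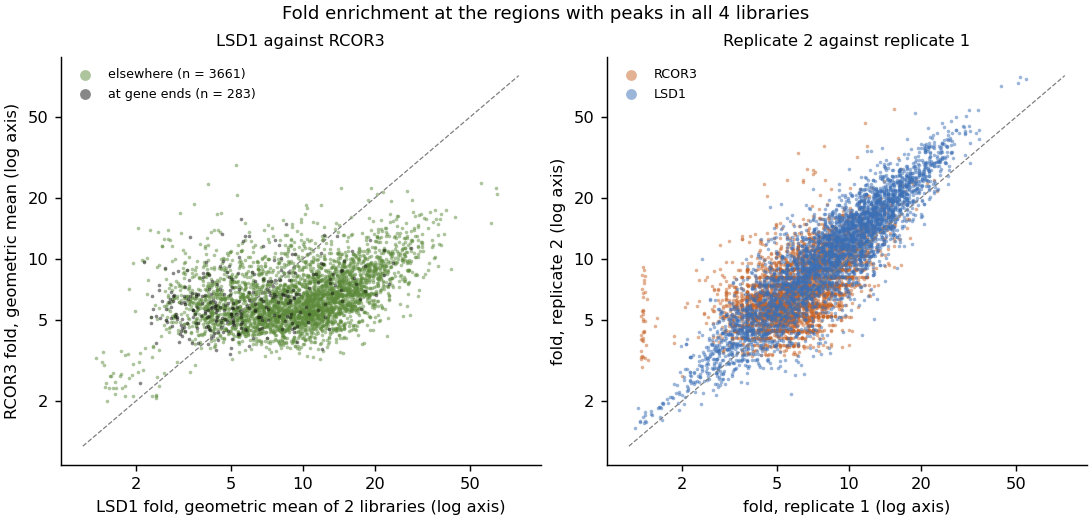
Fold enrichment at the 3944 shared regions on log axes. Left, geometric mean of the LSD1 libraries against that of the RCOR3 libraries, with the 283 regions at gene ends in black (rank correlation 0.38 over all). Right, replicate 2 against replicate 1 of each protein (rank correlation 0.90 for LSD1 and 0.54 for RCOR3), in which 36 regions with an RCOR3 replicate 1 fold under 1.5 stand in a column of their own. Dashed lines mark equal values.

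Of those 36 low regions, 33 lay within 2 Mb of MYCN on chromosome 2, the amplified gene of this line. The 45 shared regions there had a median fold of 1.75 and 2.04 in the LSD1 libraries, 1.38 in RCOR3 replicate 1 and 4.97 in RCOR3 replicate 2. The part of copy number in these folds was not tested. Without this stretch the rank correlation was 0.36.

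The strongest shared regions lay 4.96 to 85.5 kb from gene ends and ranked high in every library. Ranked by the lowest fold percentile over the 4 libraries, a region of 1556 bp at chr1:48654101-48655656 came first. Its nearest protein-coding end, 71.9 kb away, belongs to BEND5, a BEN-domain DNA-binding repressor. This region had an LSD1 fold of 54.9 and 77.2 and an RCOR3 fold of 18.6 and 23.4, and was not the highest in every library. A region 16.7 kb from LIX1 (chr5:97124951-97125940) had 52.2 and 78.5 for LSD1 and 23.3 and 21.7 for RCOR3. One 4.96 kb from PPFIBP1, a liprin-binding scaffold protein (chr12:27517819-27519242), had 26.7 and 47.8, and 16.1 and 18.7. The region near SHOX2, a homeobox gene (chr3:158058322-158059291), had 26.9 and 38.1 for LSD1 and 13.9 and 18.3 for RCOR3. The other 8 of the 12 strongest were nearest to CCDC3, LRMDA, ZNF622, SSH2, UQCRFS1, AMBRA1, BFSP2 and MAP3K13. None of the 12 lay at a gene end. All 12 held RCOR1 peaks of both replicates, and 9 and 10 of them held peaks of the induced RCOR2 libraries, while uninduced FLAG replicate 2 had a peak in 5 and replicate 1 in none.

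The strongest regions of LSD1 without RCOR3 were of lower fold. At the top stood a region 19.1 kb from PAX7, a paired-box regulator of neural crest and muscle (chr1:18768012-18768932), with an LSD1 fold of 15.9 and 18.1. It was followed by regions nearest to IFT70A, an intraflagellar transport gene (13.7 and 21.3), DENND5B, a regulator of Rab GTPases (16.4 and 16.8), and REPS1 (13.2 and 16.8). TBX20, a T-box regulator, stood seventh with 14.5 and 15.5, at 99.7 kb. SUCO, NLK, LAMA4, ABTB3, DDR2 and FAM163A were among the rest. RCOR1 replicate 1 had a peak in 11 of the 12 (66.5% of the class) and RCOR1 replicate 2 in 1 (7.74%). Neither uninduced FLAG library had one, against 0.0688% and 0.791% of the class.

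Among the strongest regions of RCOR3 without LSD1 the first 5 differed between the replicates in fold. LOC102723655 near the end of the short arm of chromosome 16 led with an RCOR3 fold of 21.0 and 28.4. ALLC, an allantoicase gene, followed with 18.1 and 36.6, then AVPI1 (15.5 and 37.3), YJU2, a splicing factor (15.2 and 27.5), and CREBBP, a histone acetyltransferase (11.2 and 25.3). In several of the others the libraries were closer, as near COL5A1 (10.3 and 10.4), NOC2L (9.16 and 9.72), RASA3 (9.04 and 9.70) and NACC2 (9.69 and 9.60). LHX3 and MYT1 were also among the 12. Only 3 of the 12 lay at a gene end, against 51.1% of the class. Uninduced FLAG peaks were present in 5 and 6 of the 12, against 41.1% and 25.1% of the class.

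Most shared regions had the higher fold for LSD1. Both LSD1 values lay above both RCOR3 values in 2329 shared regions (59.1%), the reverse held in 614 (15.6%), and the values overlapped in 1001 (25.4%). The median log2 difference of LSD1 minus RCOR3 was 0.61, which depends on the antibodies. The largest differences towards LSD1 were near ETV1, an ETS factor (LSD1 17.5 and 28.7, RCOR3 3.72 and 4.74), and CPB1 (25.2 and 31.6, 4.92 and 5.66). Next came regions near UNC5C, a netrin receptor (23.8 and 28.7, 4.74 and 5.86), and SPECC1L. The last had KCNMB2 as its nearest gene, 365 kb away. Towards RCOR3 they were near CCDC200 (1.95 and 2.16 for LSD1, 6.13 and 33.2 for RCOR3, and a second region there), PARD6G (3.15 and 5.11, 11.6 and 46.8), LOC107987432 and KIF21B (2.64 and 3.54, 14.7 and 19.3). In the CCDC200 and PARD6G regions the RCOR3 replicates themselves differed more than 3-fold. Both uninduced FLAG libraries had peaks in 4 of these 5 regions, all but that of KIF21B, and in none of the 5 towards LSD1. The part of this uninduced FLAG signal was not tested.

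Genes were joined to regions at gene ends, or as the nearest protein-coding gene within 100 kb. Of the protein-coding genes, 7.94% had a region of RCOR3 without LSD1 at an end, 1.62% one of LSD1 without RCOR3 and 1.60% a shared one. Within 100 kb, 12.4% were nearest to a region of LSD1 without RCOR3, 9.26% to one of RCOR3 without LSD1 and 9.08% to a shared one. At gene ends 1585 genes met RCOR3 without LSD1 and 319 the shared class, with 46 genes in common (2.90% of the former, 14.4% of the latter). Within 100 kb, 822 genes met both LSD1 without RCOR3 and the shared class (33.2% and 45.3% of these genes). Gene lists are described by such shares, with no test, and the span of a list's genes is given where it is long, since a longer gene offers more room for regions. The median gene spans 24.2 kb.

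Genes for making, storing and recapturing noradrenaline stood next to shared regions. Of 15 such genes, 11 (73.3%, against 9.08% of all genes) were the nearest gene of a shared region within 100 kb, 5 of LSD1 without RCOR3 and 2 of RCOR3 without LSD1. Their median span was 38.3 kb. Without regions that hold an uninduced FLAG peak, 7 of the 15 remained. At gene ends 4 had a shared region (26.7%, against 1.60%).

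DBH, the enzyme that turns dopamine into noradrenaline, had a shared region at its transcription start with an LSD1 fold of 3.90 and 5.37 and an RCOR3 fold of 12.7 and 13.8. SLC6A2, the noradrenaline transporter, had 2.97 and 2.74 for LSD1 and 6.58 and 11.2 for RCOR3 at a gene end. CYB561, the electron carrier of chromaffin vesicles, had 6.71 and 8.77, and 11.1 and 14, at its 3′ end. In these 3 regions both RCOR3 values were above both LSD1 values, an order found in 15.6% of shared regions. CHRNA3, a nicotinic receptor subunit of sympathetic neurons, had 5.76 and 8.05 for LSD1 and 10.9 and 5.83 for RCOR3 at its start, and these overlapped. DBH and CYB561 also had a region of RCOR3 without LSD1 at the start (RCOR3 fold 5.90 and 7.28 at DBH, 6.41 and 6.79 at CYB561). Away from gene ends the order turned, as near GCH1, the entry enzyme of tetrahydrobiopterin synthesis (LSD1 17.5 and 19.6, RCOR3 9.83 and 12.6). Uninduced FLAG peaks lay in both DBH regions, in the shared regions of SLC6A2, CHRNA3 and GCH1, and in the CYB561 region of RCOR3 without LSD1.

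The adrenergic core regulators, genes tied to the adrenergic state of neuroblastoma cells and mostly but not all transcription factors, were near all classes. Of 28 genes, 11 (39.3%) were nearest to LSD1 without RCOR3 within 100 kb, 11 to RCOR3 without LSD1 and 11 to a shared region, against 12.4%, 9.26% and 9.08% of all genes. With equal numbers of top peaks 7 were nearest to a shared region. The count was the same with peaks at or above each library's median −log10 q. At gene ends 7 of the 28 met RCOR3 without LSD1 (7.94% of all genes did), 1 LSD1 without RCOR3 and 1 a shared region. PHOX2A, a homeobox regulator of sympathetic neurons, had RCOR3 without LSD1 at the start, with 7.27 and 7.47. ISL1, a LIM-homeobox factor, had 5.49 and 6.72 there, MSI2 5.18 and 4.88, HAND1 3.53 and 5.22, and MEIS2 4.47 and 3.40. TBX3 had 6.38 and 7.43 and TBX2 3.23 and 4.68, and which end these were is not known. Some of these folds ranked low. The lowest percentile over the RCOR3 libraries was 10.7 for HAND1, 5.70 for TBX2 and 2.68 for MEIS2. For the others it was 34.5 to 87.6. The ISL1 region held an uninduced FLAG peak and those of the other 6 did not. TFAP2B, an AP-2 factor, was the gene with LSD1 alone at its start, at 6.62 and 5.10.

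Away from its end HAND1, a basic helix-loop-helix factor, was the nearest gene of 8 shared regions, the strongest with 10.5 and 11.5 for LSD1 and 7.89 and 12.3 for RCOR3 at 97.2 kb. GATA3, a zinc-finger factor, had a shared region at 40.8 kb with 14.5 and 20.9, and 7.5 and 8.49. KLF7, another zinc-finger factor, had 4 shared regions, the strongest with 14 and 17.8 for LSD1, and 6 of LSD1 without RCOR3. Of genes outside the lists, CLPB, a mitochondrial chaperone, was nearest to 10 shared regions, and PLPPR4 and WSCD2 to 12 regions each of LSD1 without RCOR3.

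**Figure D5:**
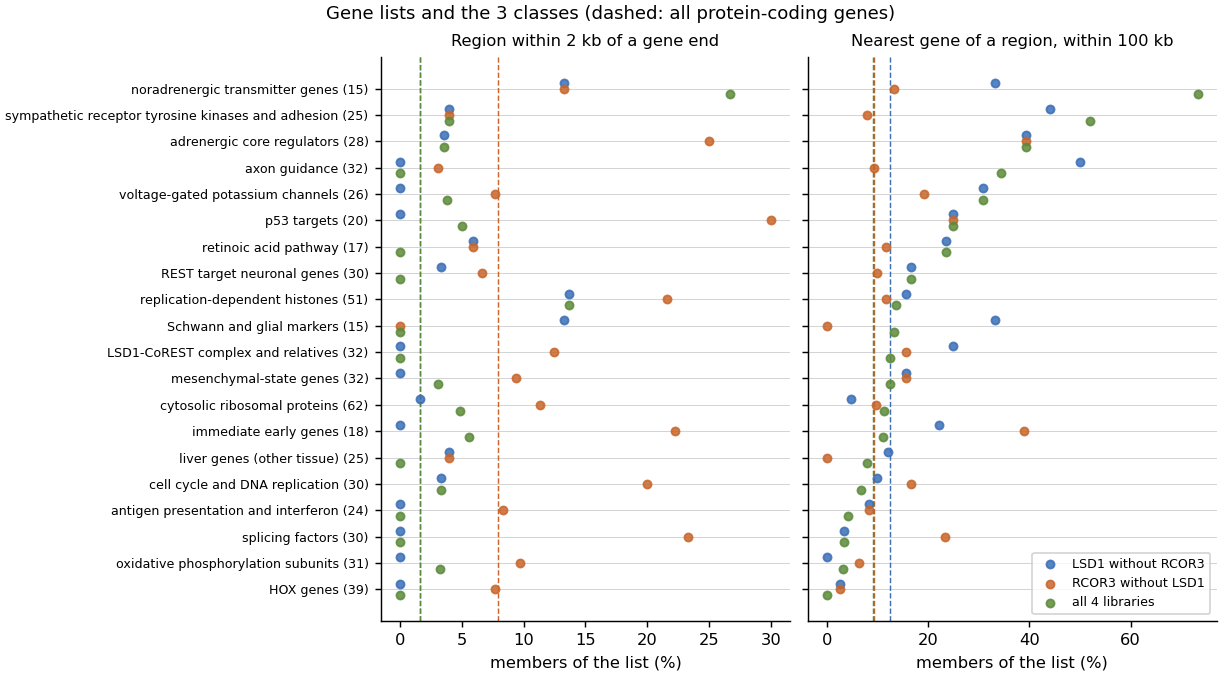
Percentage of the found members (number in brackets) of each of 20 gene lists with a region of each class at a gene end (left) or as the nearest gene within 100 kb (right). Dashed lines mark the same shares over all 19970 protein-coding genes. Noradrenergic genes reach 73.3% with shared regions on the right, and p53 targets 30.0% with RCOR3 without LSD1 on the left.

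Of 32 genes of the LSD1-CoREST complex and its relatives, 4 had a region of RCOR3 without LSD1 there (12.5%, against 7.94%) and none had either other class. The RCOR3 gene itself had an RCOR3 fold of 6.14 and 7.32 at its start. GFI1B, a SNAG-domain repressor, had 4.04 and 4.29, CBFA2T2, a relative of RUNX1T1, 5.49 and 4.08, and CHD4, the remodeller of the NuRD complex, 3.71 and 3.68. The lowest percentile over the RCOR3 libraries was 15.5, 11.4 and 5.08 for GFI1B, CBFA2T2 and CHD4, against 81.1 for the RCOR3 gene. Uninduced FLAG peaks lay in the RCOR3 and GFI1B regions. RUNX1T1, the target of the unused shRNA in the LSD1 cells, had no class region at an end and a shared region at 64.0 kb with LSD1 at 15.1 and 13.9 and RCOR3 at 4.94 and 4.93.

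RCOR3 without LSD1 was also found at the ends of widely expressed genes. Among 30 splicing factors 7 had such a region at an end (23.3%, against 7.94%), and none had LSD1 without RCOR3 or a shared region there. HNRNPD had an RCOR3 fold of 6.14 and 6.72, SRSF2 5.56 and 6.29, HNRNPU 5.69 and 5.66 and SRSF1 5.84 and 5.41. Each of these 4 regions also held an uninduced FLAG peak. Of 20 p53 targets 6 had RCOR3 without LSD1 at an end (30.0%), among them RRM2B (4.84 and 7.46) and PLK3 (4.52 and 5.97). Of 30 genes of cell cycle and DNA replication 6 did, with CCND1 at 6.46 and 5.22. Of 18 immediate early genes 4 did (22.2%), with JUN, an AP-1 subunit, at 8.07 and 7.46. The regions of RRM2B, CCND1 and JUN held an uninduced FLAG peak, and that of PLK3 did not. Of 51 replication-dependent histone genes 11 did (21.6%), and 7 each met the other classes, although neighbouring histone genes share regions. Among 62 cytosolic ribosomal protein genes the count was 7 (11.3%) and among 31 subunits of oxidative phosphorylation 3 (9.68%), near the share of all genes. Of all 19970 genes, 7411 had any merged region at an end. In these lists 23 splicing factors, 16 p53 targets, 19 cell cycle genes and 12 immediate early genes had one. So had 39 histone genes, 45 ribosomal protein genes and 19 subunits of oxidative phosphorylation. The part of this in the shares above was not tested.

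Neuronal guidance, adhesion and channel genes met LSD1 away from their ends. Of 32 axon guidance genes 16 were nearest to LSD1 without RCOR3 (12.4% of all genes were), 11 to a shared region and 3 to RCOR3 without LSD1. These genes span a median of 290 kb. PLXNA4, a semaphorin coreceptor, had the strongest shared region, with LSD1 at 21.9 and 29.0 and RCOR3 at 11.4 and 14.9, and EFNA5, an ephrin, had 16.4 and 26.1, and 7.52 and 8.86. Of 25 receptor tyrosine kinase and adhesion genes of the sympathetic lineage, with a median span of 309 kb, 13 were nearest to a shared region (52.0%) and 11 to LSD1 without RCOR3. ALK, the receptor kinase mutated in some neuroblastomas, had 16.2 and 21.8 for LSD1 and 11.7 and 14.2 for RCOR3. RET, the GDNF receptor, had the opposite order, 6.34 and 8.89 against 10.3 and 16.3. Uninduced FLAG peaks lay in the ALK and RET regions. Of 26 potassium channel genes 8 each were nearest to LSD1 without RCOR3 and to shared regions (30.8%), and these genes span a median of 328 kb.

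Some Schwann and glial markers were found near LSD1 without RCOR3, and 10 of 15 had no class region. Of these genes 5 were nearest to LSD1 without RCOR3 (33.3%, against 12.4%) and 2 to a shared region (13.3%, against 9.08%). None was nearest to RCOR3 without LSD1, against 9.26% of all genes, and a list of 15 is too short to separate these. At gene ends 2 had a region of LSD1 without RCOR3 (13.3%, against 1.62%). Of 17 retinoic acid genes 4 each were nearest to LSD1 without RCOR3 and to shared regions (23.5%) and 2 to RCOR3 without LSD1 (11.8%). Among 32 mesenchymal-state genes 5, 5 and 4 were nearest to LSD1 without RCOR3, RCOR3 without LSD1 and shared regions. The counts were 5, 3 and 5 of 30 REST targets and 2, 2 and 1 of 24 genes of antigen presentation and interferon. Of 25 liver genes, a tissue foreign to these cells, 3, 0 and 2 were, and of 39 HOX genes 1, 1 and 0.

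Promoter windows (250 bases before to 50 after the start) of 52, 935 and 115 genes overlapped regions of LSD1 without RCOR3, of RCOR3 without LSD1 and of the shared class, out of 15811. Median G and C content was 52.5%, 66.0% and 59.7%, against 62.7% over all windows. The 16 motifs searched on both strands were AGATAA (the GATA core), CAGATG (the E-box of HAND and TWIST factors), CAGCTG (another E-box), CACGTG (the E-box of MYC), TAATTA (the homeodomain core), AAATCA (the core of GFI1 sites), TTCAGCACC (the left part of the REST site), CCGGAAG (the ETS core), GCATGCGC (the NRF1 core), AAGATGGC (the YY1 core), CCAAT (the NFY box), GGGCGG (the SP and KLF box), TGACGTCA (the CRE), TGANTCA (the AP-1 site), GGAATG (the TEAD core) and GCGGGAA (the E2F core). Matches of different motifs can overlap each other.

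GGGCGG stood in capitals in the TOR1AIP2, DDX5, STX16 and PWWP2A promoters. It was present in 79.0% of promoters of RCOR3 without LSD1 (76.3 to 81.5) and 58.3% of shared ones (49.1 to 66.9). For LSD1 without RCOR3 the share was 38.5% (26.5 to 52.0), and over all promoters it was 58.5%. CCGGAAG was present in 26.8% (24.1 to 29.8), 29.6% (22 to 38.5) and 13.5% (6.68 to 25.3), against 14.2%. TGACGTCA, as in H4C5, was found in 5.35%, 8.70% and none of the 52, against 2.59%. AGATAA was present in 4.49% (3.34 to 6.02), 7.83% (4.17 to 14.2) and 11.5% (5.40 to 23), against 7.55%, and the last 2 intervals include the share of all promoters. The left part of the REST site was found in 2 promoters of RCOR3 without LSD1 and in none of the others, against 0.398% of all. Motifs rich in G and C move with the composition given above, and a match of letters is a description of the window.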

How the data were processed

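The measurements are ChIP-seq peak lists, 1 per library. Per the submitters' processing notes, the tools were BWA 0.7.17, MACS2 and deepTools, with GRCh38 as the build. The control library and the handling of duplicates were not given in the sources used here. The fold enrichment of each peak, a ratio over the local background, was used as deposited by the authors. The −log10 q-value of each peak is likewise as deposited, with smallest values near a q-value of 0.05. The RCOR2-high and RCOR2-low lists were deposited by the authors as positions only. Read depth is unknown, because the lists hold no read counts, and only peak numbers are given.

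Peaks on chromosomes 1 to 22 and X of the LSD1 and RCOR3 libraries were merged where they overlapped by at least 1 bp (Python 3.11.15, pandas 2.3.3, numpy 2.4.6, scipy 1.17.1, and matplotlib 3.10.9 for figures). Genes, strands and promoter sequences came from RefSeq GRCh38.p14. Of 567 listed genes 566 were found by symbol. Groups and replicate numbers follow the labels, although the peak names inside the file of RCOR3 replicate 2 carry another number. The labels do not say that replicates are separate cultures, so their spread may be technical. Library values were compared with exact permutation tests, regions were described with Wilson intervals at 95%, and no test was run over regions or genes. The steps were tested on simulated peak lists.

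Named genes are the 12 strongest regions of each class by the lowest percentile of fold over its libraries, the 5 largest fold differences each way among shared regions, every adrenergic and LSD1-CoREST gene with a class region at an end, and up to 4 members of other lists. Not every such gene is printed, a few are not reported here, and genes named beyond this rule (those with most regions, further members of the adrenergic, noradrenergic and kinase lists, RUNX1T1, and small nuclear RNA genes) were chosen after their values were seen. The classes, members and lists were chosen with earlier results of these data known. Alternatives were equal numbers of top peaks (13644), peaks at or above each library's median −log10 q, peaks of 500 bp, merging up to 500 bp apart, removal of the MYCN surroundings or of regions with uninduced FLAG peaks, a gene-end window of 500 bp, each library left out, a replicate block, Pearson correlation, and gene ends apart.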

Additional observations from a re-analysis of the deposited data

How the results depend on the processing

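With equal numbers of top peaks the shared class held 2401 regions, and the gene-end shares of LSD1 without RCOR3, RCOR3 without LSD1 and shared regions were 3.76%, 42.3% and 4.46%. With peaks at or above each library's median −log10 q the classes held 2876, 1106 and 2144 regions, with gene-end shares of 39.7% and 5.69% for the latter classes and a rank correlation of 0.30. Peaks of 500 bp gave a gene-end share of 53.1% for RCOR3 without LSD1. Merging up to 500 bp apart gave 54.9%, and 8.24% for shared regions. Without regions that hold an uninduced FLAG peak RCOR3 without LSD1 held 1288 regions, with gene-end shares of 39.1%, and 5.62% for shared regions. A window of 500 bp gave 2.12%, 42.9% and 4.56%. A window of 2 kb around transcription starts only, chosen after seeing the data, gave 3.17%, 43.4% and 4.91%. Gene ends alone gave a rank correlation of 0.30. Leaving out each library in turn gave 7007 to 11550 regions for LSD1 without RCOR3, 2816 to 20355 regions for RCOR3 without LSD1 and 4157 to 5673 for shared regions, with gene-end shares of 4.86% to 7.82%, 22.3% to 52.3% and 6.56% to 12.1%. The Jaccard difference spanned 0.0190 to 0.339, the gene-end difference of libraries 11.3 to 22.4 points, and the rank correlation 0.36 to 0.42. The difference in peaks overlapping RCOR1 replicate 1 (1.29 points) turned to -9.47 with peaks above the median −log10 q, and spanned -22.3 to 24.8 with libraries left out, turning in sign without LSD1 replicate 2 (-0.691) and without RCOR3 replicate 1 (-22.3). The other partner differences kept their sign in each setting run, apart from the uninduced FLAG differences, which are 0 by construction without such regions. With the replicate block the gene-end difference was 16.9 points (20.4 and 13.4 in pairs 1 and 2, exact sign-flip p = 0.500, the smallest possible). The labels do not say whether the replicate numbers pair the libraries. Replicate deviations of LSD1 and RCOR3 over 3944 shared regions correlated at -0.07, which cannot decide this, because regions are not replicates. Of 347 alternative values 269 stayed within the limits set for them, 75 moved beyond them and 3 changed sign. For the tested differences of libraries only a change of sign could count, however much the size moved. The 269 is therefore no measure of stability. The 12 named regions remained in their class in 11 to 12 cases for LSD1 without RCOR3, 5 to 12 for RCOR3 without LSD1 and 7 to 12 for shared regions, the lowest of the last 2 without uninduced FLAG regions. No test here can pass a threshold of 0.05 with 2 libraries against 2.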

Other observations

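Small non-coding RNA genes were examined after the classes had been described, so their choice followed a look at the data. Of 154 small nuclear RNA genes, which encode the RNA parts of the spliceosome, 33 (21.4%) lay within 200 bp of a shared region, 5 of a region of RCOR3 without LSD1 and 1 of LSD1 without RCOR3. The 32 shared regions concerned were 0.811% of the class, against 0.144% of all merged regions, and included RNU1-1 (LSD1 fold 9.08 and 16.5, RCOR3 fold 6.80 and 13.3), RNU5B-1 (12.1 and 11.8, 10.2 and 8.12), and RNU4-2 with RNU4-1 (10.1 and 6.39, 6.06 and 10.2). Uninduced FLAG peaks lay in 27 of the 32, and the part of that signal was not tested. At 10 regions near CCDC200 on chromosome 17, a tandem group of small nuclear RNA genes, the median LSD1 fold was 2.41 and 2.34 and the median RCOR3 fold 6.28 and 24.2. RNU5E-1, RNU5D-1, RNU5F-1, RNU5A-1 and RNU2-2 were the shared regions with no uninduced FLAG peak, and RNU5E-1 had 10.2 and 12.4 for LSD1 and 9.39 and 7.61 for RCOR3.

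Of 49 ribosomal RNA genes 10 (20.4%) lay within 200 bp of a region of RCOR3 without LSD1, 1 of a shared region and none of LSD1 without RCOR3, and 30 lay that near to any merged region. The 9 regions of RCOR3 without LSD1 concerned were 0.349% of the class, against 0.122% of all merged regions. Of 443 tRNA genes 28, 32 and 27 lay within 200 bp of LSD1 without RCOR3, RCOR3 without LSD1 and shared regions (6.32%, 7.22% and 6.09%). The regions concerned were 0.465%, 0.775% and 0.482% of these classes, against 0.315% of all merged regions. Of 1196 small nucleolar RNA genes 1, 2 and 6 did, at regions that made up 0.0172%, 0.0387% and 0.152% of the classes, against 0.0345%. Several of these genes are near-identical copies, where reads of one copy can be placed at another.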
